A study of Homo sapiens with 3 samples.

Results

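The Notch receptors NOTCH1, NOTCH2, NOTCH3 and NOTCH4, the ligands JAG1, JAG2 and DLL1 and the targets HES1 and HEY1 were followed in PANC-1 cells, an established human cell line from a pancreatic ductal carcinoma. The 9 genes were taken by symbol from a table of 51136 genes, and each of them had its own entry. The study profiled 3 RNA-seq libraries, 1 from untreated cells (control), 1 from cells given 200 μM ginsenoside Rg3 (Rg3), a ginseng compound described as antiangiogenic, and 1 from cells given 50 μM tamoxifen (TAM), an antiestrogen that also inhibits protein kinase C. Each treatment lasted 24 h, the doses differed, and no vehicle was named for the control cells. The question was how each drug moved genes that bear on angiogenesis. With 1 library per condition, no difference below has a replicate check, the intervals cover counting error only, and a difference between cultures cannot be told apart from the treatment. In bulk RNA, fewer cells of a type and less RNA per cell cannot be told apart either.

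Notch signalling passes between cells that touch. A Jagged or Delta-like ligand on one cell binds a Notch receptor on its neighbour, ADAM10 or ADAM17 and then gamma-secretase cut the receptor, and its freed intracellular domain joins RBPJ and a Mastermind coactivator in the nucleus to switch on genes such as HES1 and HEY1. In the pancreas the pathway is known for keeping progenitor cells undifferentiated and for its activity in ductal carcinoma, and in growing vessels for the choice between tip and stalk cells.

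The libraries held 11300766 counts (control), 12861693 (Rg3) and 11321442 (TAM). The keratins KRT8 and KRT18 had 7406 to 15329 counts and the intermediate filament gene VIM 39783 to 55276, while the ductal keratin gene KRT19 had 181 to 665 and the epithelial adhesion gene EPCAM 8 to 26. CDKN2A, which is deleted in PANC-1, had 0 counts in each library, where a count of 0 allows up to 3 counts. The 7 acinar and endocrine markers were also at 0, and the 7 endothelial, immune and fibroblast markers had at most 3 counts.

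The base letters around the start of HES1 are shown because RBPJ, the DNA-binding partner of the cleaved receptor, is known to bind there, and those of NOTCH4 because it was the other member higher with TAM with an entry in the RefSeq promoter table. Each line gives the 250 bases before the start site (GRCh38.p14), 5′ to 3′ on the strand of the gene, and capitals mark TGGGAA, core letters of the RBPJ motif, searched on both strands.
HES1, chr3:194135898-194136147, plus strand: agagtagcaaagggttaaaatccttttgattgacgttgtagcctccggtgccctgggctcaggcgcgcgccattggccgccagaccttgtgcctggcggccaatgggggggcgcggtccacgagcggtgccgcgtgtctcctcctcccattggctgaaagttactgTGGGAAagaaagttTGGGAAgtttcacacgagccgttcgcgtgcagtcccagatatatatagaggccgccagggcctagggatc
NOTCH4, chr6:32224068-32224317, minus strand: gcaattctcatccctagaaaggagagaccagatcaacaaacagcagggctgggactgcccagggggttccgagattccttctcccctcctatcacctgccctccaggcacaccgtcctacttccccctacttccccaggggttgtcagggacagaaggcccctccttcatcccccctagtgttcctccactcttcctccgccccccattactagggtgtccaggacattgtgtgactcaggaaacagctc
HES1 held 2 copies, both on its own strand, whose first bases lie 84 and 70 bases before the start. Each is a match of letters only, and whether RBPJ binds at either copy was not tested. Among 35116 windows of this length, 20.8% held the motif at least 1 time and 2.9% at least 2 times on either strand. Of the 7 members in that table (DLL1 and HEY1 were not matched), the other 6 held no copy, which says only that these letters are not in this window.

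Among the 9 members, NOTCH2 was the receptor and JAG1 the ligand with the highest level in untreated PANC-1 cells. Levels are given as CPM per kb, the reads of a gene relative to its TMM-scaled library total (CPM), divided by the length of the longest GENCODE 29 transcript in kilobases, so that genes can be set against each other. In the control library JAG1 stood at 17.3 CPM per kb, NOTCH2 at 15.5, HES1 at 9.66, JAG2 at 6.42 and NOTCH1 at 4.23. Below them came NOTCH3 at 2.10, HEY1 at 1.44, NOTCH4 at 0.478 and DLL1 at 0.192. The 95% counting intervals of neighbours in this order overlapped for NOTCH3 and HEY1 and for NOTCH4 and DLL1, and for no other pair of neighbours. DLL3, of the Delta-like family and not a member, stood above all of them, at 79.6 CPM per kb in untreated cells, 55.3 under Rg3 and 66.9 under TAM. Whether DLL3 acts as an activating ligand in these cells was not tested. Of the targets outside the members, CCND1 (55.8), NRARP (22.4), SOX9 (22.04), HES4 (20.01), HES6 (13.06) and HES7 (11.34) also had more CPM per kb than HES1 in untreated cells.

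The order differed in the treated libraries. With Rg3, NOTCH2 was first at 17.4 CPM per kb, ahead of JAG1 at 8.49 and HES1 at 7.48, whose intervals overlapped. With TAM, HES1 was first at 23.6 CPM per kb and JAG1 next at 21.8, also with overlapping intervals, followed by NOTCH2 at 6.69 and HEY1 at 4.29. DLL1 was last with TAM (0.190 CPM per kb) and NOTCH4 was last with Rg3 (0.247). The receptors summed to 22.3 CPM per kb in untreated cells, 21.5 under Rg3 and 11.6 under TAM, the 3 member ligands to 23.9, 11.8 and 25.1, and the targets HES1 and HEY1 to 11.1, 8.87 and 27.8. The ligand sum was therefore lowest with Rg3, while the receptor sum was lowest and the target sum highest with TAM. NOTCH2 made up 69.5% of the receptor sum in untreated cells, 80.7% under Rg3 and 57.8% under TAM, and JAG1 made up 72.3%, 71.8% and 87.2% of the ligand sum.

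**Figure D1:**
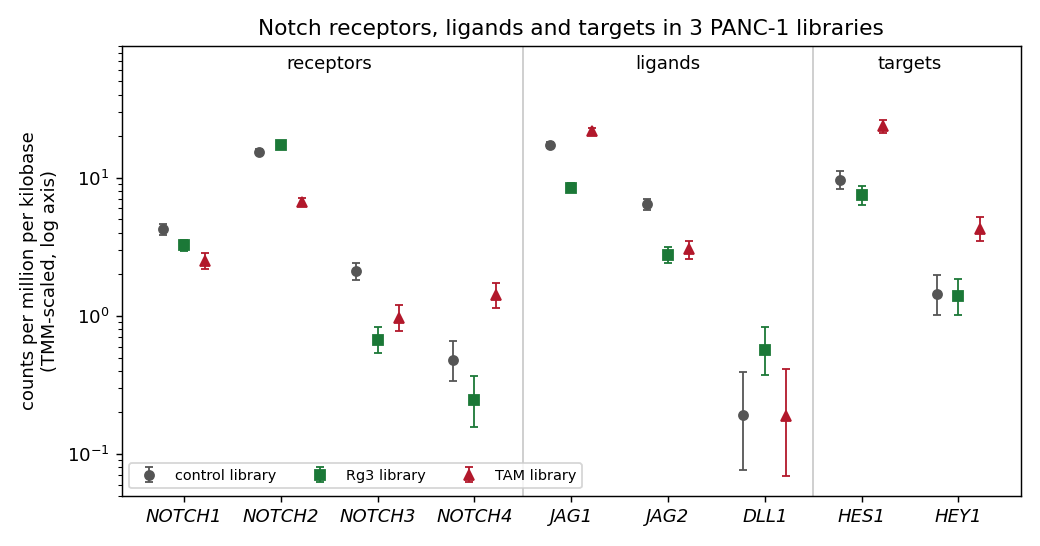
Level of each member in the control (circles), Rg3 (squares) and TAM (triangles) libraries, in TMM-scaled CPM per kilobase of transcript on a log axis, with 95% exact Poisson counting intervals. NOTCH2 and JAG1 lead in the control library, and HES1, HEY1 and NOTCH4 stand highest in the TAM library.

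Changes are given as log2 folds of TMM-scaled counts with an exact 95% counting interval, for genes that reached 10 counts in one of the libraries compared, and a gene is called higher or lower where the fold is past 1.5 (0.585 on the log2 scale). Both comparisons with the control share 1 control library. Log2 folds followed base composition across the table, and 5 of the 9 members (NOTCH1, NOTCH3, NOTCH4, JAG2 and DLL1) have transcripts of 58.3% to 64.0% GC. Genes of 60 to 65% GC with at least 50 counts had a median log2 fold of -0.60 with Rg3 (1264 genes) and of 0.43 with TAM (1282 genes). The others, NOTCH2, JAG1, HES1 and HEY1, lie between 47.3% and 49.9% GC, and the medians between 45 and 50% GC were 0.16 (2082 genes) and -0.08 (1972 genes). Log2 folds also followed transcript length, with Spearman correlations of 0.198 with Rg3 and -0.452 with TAM. For GC content these were -0.807 and 0.507. HES1, HEY1 and NOTCH2 have transcripts of 1578, 2296 and 11389 bases. The trend on both measures with TAM was 0.235, 0.087 and -0.598 for these 3 genes. A second value with a loess trend on GC content and transcript length removed is therefore given beside the first. The part of this trend in any difference was not tested.

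**Figure D2:**
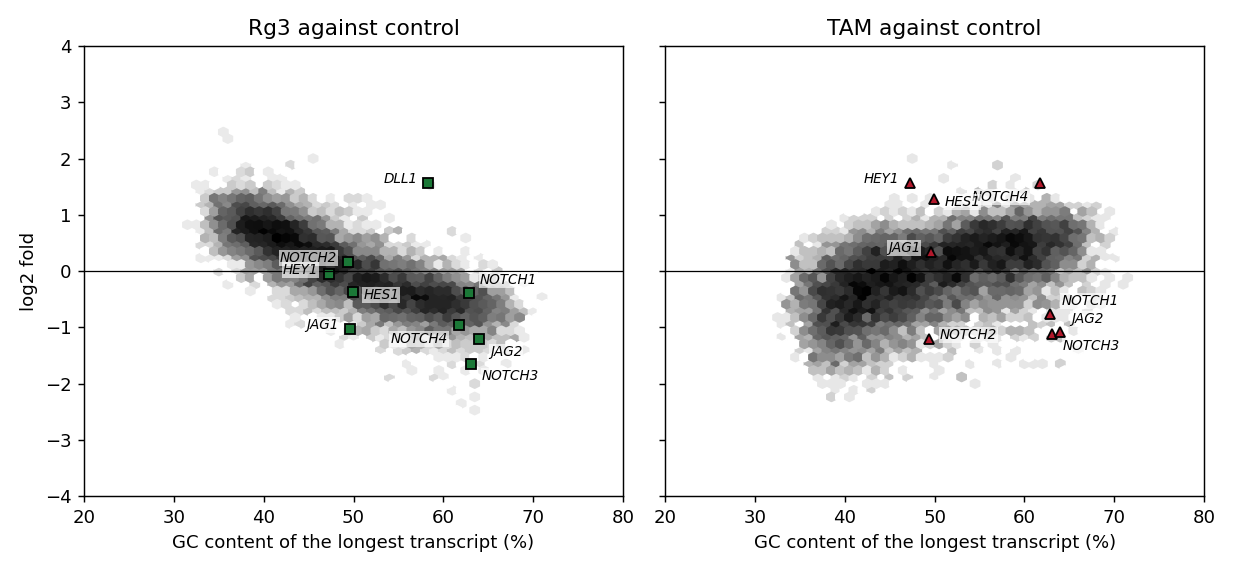
Log2 fold against the GC content (%) of the longest transcript, for Rg3 (left) and TAM (right) against control. Grey cells hold the genes with at least 50 counts, darker where there are more genes, and labelled points are the members. DLL1 stands above the genes of like GC content with Rg3, as HES1, HEY1 and NOTCH4 do with TAM, while NOTCH1, NOTCH2, NOTCH3 and JAG2 stand below them with TAM.

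In the Rg3 library the Jagged ligands and NOTCH3 were lower than in the control library. Over all 9 members, 4 were called lower (NOTCH3, NOTCH4, JAG1 and JAG2), 1 higher (DLL1) and 4 neither. Among all 16487 genes compared, 19.3% were called lower and 25.0% higher, or 44.3% in all. The median log2 fold of the members was -0.39, against 0.04 over all genes compared. These medians were -0.31 and -0.01 with the trend removed. With the trend removed, 2 members were called lower (NOTCH3 and JAG1) and 1 higher (DLL1), where 10.5% and 8.31% of all genes were. Requiring also an adjusted p under 0.05 in the exact two-sided binomial test on reads, which compares libraries and not conditions, gave 4 lower and 1 higher, against 15.6% and 20.5% of all genes. The exact test of edgeR called 0 members if cultures are assumed to vary by a coefficient of variation of 0.4, and 1 lower at 0.2.

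JAG1, the Jagged ligand best known from Alagille syndrome and from bile duct and vessel formation, had 1179 counts in untreated cells, against 726 under Rg3 and 1291 under TAM. The Rg3 library was the lowest of the 3. JAG1 was 2.04-fold lower with Rg3, with a log2 fold of -1.03 (95% interval -1.16 to -0.89). The trend at its GC content and length was -0.01, and the value with the trend removed was -1.02. JAG1 lies on chromosome 20 (GRCh38, 10637684 to 10673999, minus strand), and its exons overlap AL050403.2 on the opposite strand, whose reads cannot be told apart where counting does not use strand.

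JAG2, a close relative of JAG1, had 430 counts in untreated cells, against 233 under Rg3 and 176 under TAM. Both treated libraries were lower. Its log2 fold with Rg3 was -1.21 (-1.45 to -0.98), or 2.31-fold lower. The trend alone was -0.72 at its 64.0% GC, and the remaining -0.50 was under 1.5-fold. JAG2 (chromosome 14, 105140981 to 105168824, minus strand) shares 7.28% of its 50-base stretches with AL512356.1, which overlaps it on the same strand.

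NOTCH3, a receptor known for its role in vascular smooth muscle and pericytes, had 209 counts in untreated cells and 84 under either drug. With Rg3 it was 3.12-fold lower, with a log2 fold of -1.64 (-2.03 to -1.27), the lowest of the 9 members. The trend there was -0.66, and -0.98 remained with the trend removed. NOTCH3 lies on chromosome 19 (15159038 to 15200981, minus strand) and shared none of its 50-base stretches with another gene.

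DLL1, a Delta-like ligand, had 7 counts in untreated cells, against 26 under Rg3 and 6 under TAM. The Rg3 library stood apart, at a log2 fold of 1.57 (0.32 to 3.02), and these few counts gave the widest interval of the members. The trend for its GC content and length was -0.52, and the value with the trend removed was 2.08. That trend was fitted on genes with at least 50 counts, which DLL1 did not reach. DLL1 lies on chromosome 6 (170282206 to 170306565, minus strand).

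The remaining receptors were less distinct with Rg3. NOTCH1, the receptor mutated in T-cell leukaemia, had 452 counts in the control library and 434 with Rg3, a log2 fold of -0.39 (-0.58 to -0.19), and with the trend removed the value was 0.27, of the other sign. NOTCH2, which like JAG1 is mutated in Alagille syndrome, had 2026 and 2845 counts, a log2 fold of 0.16 (0.08 to 0.25) that was 0.06 with the trend removed. NOTCH4, known mainly from endothelial cells, had 37 and 24 counts, a log2 fold of -0.95 (-1.76 to -0.17) that was -0.31 with the trend removed. None of these 3 receptors was past 1.5-fold once the trend was removed.

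Neither target was past 1.5-fold between the Rg3 and control libraries. HES1, a transcriptional repressor that is the classical readout of Notch, had 175 counts in the control library and 170 with Rg3, a log2 fold of -0.37 (-0.68 to -0.06) and of -0.36 with the trend removed. HEY1, a related repressor, had 38 and 46 counts, a log2 fold of -0.05 (-0.70 to 0.61) and of -0.21 with the trend removed. The interval of HEY1 reached past 1.5-fold in both directions, so that a change of that size was not detectable at this depth.

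**Figure D3:**
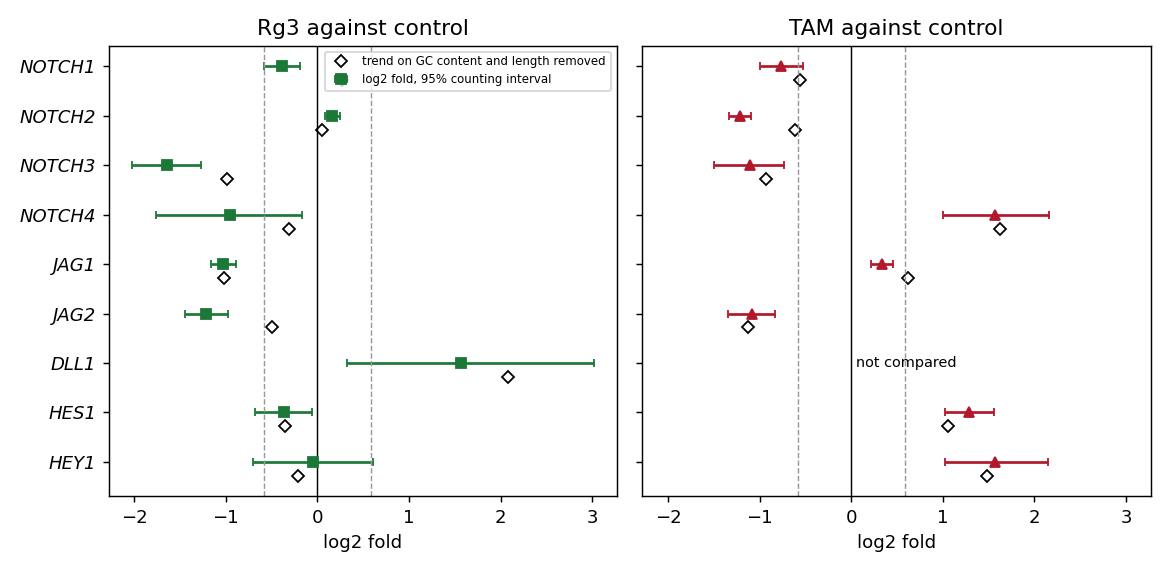
Log2 fold of each member in the Rg3 (left) and TAM (right) library against the control library. Filled symbols with bars are the folds with 95% exact counting intervals, open diamonds the values with the GC and length trend removed, and dashed lines 1.5-fold. JAG1 and NOTCH3 lie below the lower line with Rg3 by both values, and HES1, HEY1 and NOTCH4 above the upper line with TAM.

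In the TAM library the targets HES1 and HEY1 were higher than in the control library while 3 of the 4 receptors were lower. Of 8 members compared (DLL1 had under 10 counts in both libraries), 3 were called higher (HES1, HEY1 and NOTCH4), 4 lower (NOTCH1, NOTCH2, NOTCH3 and JAG2) and 1 neither (JAG1). Among all 16079 genes compared, 17.4% were called higher and 23.5% lower, or 40.9% in all. The median log2 fold of the members was -0.21, against -0.02 over all genes compared. These medians were 0.03 and 0.01 with the trend removed. With the trend removed, 4 were called higher (JAG1 in addition) and 3 lower (NOTCH1 no longer), where 13.2% and 16.0% of all genes were. The exact read test gave 3 higher and 4 lower, against 14.0% and 18.3% of all genes. With an assumed coefficient of variation of 0.2 or 0.4 between cultures, edgeR called 0 members.

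HES1 had 175 counts in untreated cells, against 170 under Rg3 and 370 under TAM. The TAM library stood above the other two, which were close to each other. With TAM HES1 was 2.44-fold higher, with a log2 fold of 1.29 (1.02 to 1.55), and 1.05 remained with the trend removed. HES1, whose promoter with its 2 TGGGAA copies is printed above, lies on chromosome 3 (194136145 to 194138732, plus strand), and no annotated exon of another gene overlaps it.

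HEY1 was likewise highest in the TAM library, with 38 counts in untreated cells, against 46 under Rg3 and 98 under TAM. It was 2.98-fold higher with TAM, with a log2 fold of 1.57 (1.02 to 2.15), and 1.49 remained with the trend removed. HEY1 lies on chromosome 8 (79764010 to 79767863, minus strand).

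NOTCH4 was the receptor called higher with TAM, at 95 counts against 37 in untreated cells and 24 under Rg3. With TAM it was 2.96-fold higher, and its log2 fold of 1.57 (1.01 to 2.16) became 1.63 with the trend removed. NOTCH4 (chromosome 6, 32194843 to 32224067, minus strand) shares 0.747% of its 50-base stretches with GPSM3, which overlaps it on the same strand. GPSM3 itself had 69 counts in untreated cells, against 27 under Rg3 and 69 under TAM, so that it was not past 1.5-fold with TAM (log2 fold 0.21). Under Rg3 both genes were lower, GPSM3 at a log2 fold of -1.68 and NOTCH4 at -0.95. The part of GPSM3 reads in the NOTCH4 counts was not tested.

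The more abundant receptors were lower with TAM. NOTCH2 had 2026 counts in untreated cells, against 2845 under Rg3 and 758 under TAM, and was 2.32-fold lower with TAM, a log2 fold of -1.21 (-1.33 to -1.09). The trend at its long transcript (11389 bases) was -0.60, and -0.61 remained, just past 1.5-fold. NOTCH2 (chromosome 1, 119911553 to 120069626, minus strand) shares 4.65% of its 50-base stretches with other genes, among them its partial copy NOTCH2NLA. The count table has an entry named NOTCH2NL with 96 counts in untreated cells, 122 under Rg3 and 94 under TAM, whose log2 fold with TAM was 0.18 (-0.25 to 0.60).

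NOTCH1 had 231 counts with TAM against 452 in the control library, 1.70-fold lower with a log2 fold of -0.76 (-0.997 to -0.53). With the trend removed its value was -0.55, under 1.5-fold. NOTCH1 lies on chromosome 9 (136494433 to 136545786, minus strand). NOTCH3, with 84 counts against 209, had a log2 fold of -1.11 (-1.49 to -0.74), and -0.93 remained with the trend removed.

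The Jagged ligands parted in the TAM library. JAG1 had 1291 counts against 1179, a log2 fold of 0.34 (0.22 to 0.45), and the value with the trend removed was 0.62, past 1.5-fold. JAG2 had 176 counts against 430, 2.12-fold lower with a log2 fold of -1.08 (-1.34 to -0.83) that was -1.13 with the trend removed. DLL1, with 6 counts against 7, was not compared.

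Set directly against each other, the TAM library differed from the Rg3 library most in NOTCH4, HES1, HEY1, DLL1, NOTCH2 and JAG1. Of the 9 members, 4 were called higher with TAM than with Rg3 and 2 lower, where 30.0% and 35.1% of the 16493 genes compared were (65.1% in all). NOTCH4 was 5.73-fold higher (log2 fold 2.52, 1.86 to 3.23), HES1 3.15-fold (1.66, 1.39 to 1.93), HEY1 3.08-fold (1.62, 1.11 to 2.16) and JAG1 2.57-fold (1.36, 1.23 to 1.496). DLL1 was lower (log2 fold -1.58, -3.15 to -0.27), as was NOTCH2 (-1.38, -1.49 to -1.26). With the trend removed, the same 4 genes were higher and 4 were lower, NOTCH1 (-0.76) and JAG2 (-0.66) in addition, where 19.4% and 19.1% of all genes were. The exact read test left 4 higher and 2 lower, against 27.0% and 30.8%. The interval of JAG2 in this comparison (-0.16 to 0.42) held 0, while that of NOTCH3 (0.08 to 0.99), with 84 counts in each library, did not. With the trend removed this was the other way round, with NOTCH3 at -0.36 to 0.55 and JAG2 at -0.955 to -0.38. The doses of the drugs were not matched.

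The other genes of the pathway were taken from a list of 64 genes in 7 roles. With Rg3, 60 had enough counts, of which 10 were called higher and 17 lower, with a median log2 fold of -0.21. With TAM, 59 were compared, of which 8 were higher and 17 lower, with a median of -0.30, beside medians of 0.04 and -0.02 over all genes compared. The shares of all genes called were 25.0% higher and 19.3% lower for Rg3, and 17.4% and 23.5% for TAM. Scaling by the plain library totals put the log2 folds 0.14 higher with Rg3 and 0.21 lower with TAM, and turned these splits into 12 higher and 13 lower for Rg3, and 3 higher and 26 lower for TAM. Once the trend was removed, Rg3 left 4 higher and 5 lower, and TAM 4 higher and 12 lower. Over all genes these shares were 8.31% and 10.5% for Rg3, and 13.2% and 16.0% for TAM, and the counts of each role are read against the same shares. The medians of the list with the trend removed were -0.09 for Rg3 and -0.18 for TAM. Over all genes compared they were -0.01 and 0.01. Several of the genes named here (RFNG, ADAM10, APH1A, MIB2, NEURL1B, MAML2, EP300, SPEN, NCOR1 and HDAC2) overlap exons of a gene on the opposite strand, whose reads cannot be told apart unless strand was used.

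Among other targets, none was called higher with Rg3 and 4 of 9 were lower, where 25.0% and 19.3% of all genes were. NRARP, which feeds back on the receptor's intracellular domain, had 455 counts in untreated cells, against 218 under Rg3 and 308 under TAM, a log2 fold of -1.39 with Rg3 (-1.63 to -1.15) that was -0.65 with the trend removed. HES2, a relative of HES1, had 174, 98 and 108 counts and a log2 fold of -1.16 with Rg3 (-0.68 with the trend removed). With TAM, 1 of 9 was called higher, HEY2 with 16 counts in the control library and 28 with TAM (log2 fold 1.01, 0.08 to 2.00), and none was lower. HEY2 is named here after its value was seen. With the trend removed, 1 other target was higher and 2 were lower with either drug. For Rg3 these were HES6 (1.33, and 0.58 before), with 240 counts in untreated cells and 450 under Rg3, and NRARP and HES2. For TAM they were HEY2 (0.97), NRARP (-0.85, and -0.36 before) and HES2 (-0.63, and -0.48 before). The median of the 9 other targets with TAM was 0.03, and -0.265 with the trend removed.

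The nuclear activation complex held RBPJ itself, with 106 counts in untreated cells, against 251 under Rg3 and 64 under TAM. Its log2 fold with Rg3 was 0.92 (0.58 to 1.26), but its transcript has 38.0% GC, and 0.11 remained with the trend removed. KAT2B, an acetyltransferase that acts as a coactivator, was called higher with Rg3 by both values (1.07 and 0.67). With TAM, 4 of the 9 genes of the complex were lower and 1 was higher (23.5% and 17.4% of all genes), and with the trend removed 2 were lower and 0 higher. The coactivator MAML2 had 137 counts in the control library and 35 with TAM, a log2 fold of -1.76 (-2.34 to -1.22), and the acetyltransferase EP300 had 747 and 293, a log2 fold of -1.14 (-1.34 to -0.95). Both stayed past 1.5-fold with the trend removed, at -1.18 and -0.72. KAT2A, which shares 11.7% of its 50-base stretches with AC099811.2, had 1342 and 1766 counts and a log2 fold of 0.60 with TAM and of 0.28 with the trend removed.

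ADAM10, which makes the first cut after ligand binding, had 655 counts in untreated cells, against 1449 under Rg3 and 269 under TAM, with log2 folds of 0.82 and -1.08, and at its 38.3% GC only 0.06 and -0.12 remained with the trend removed. FURIN, which processes the receptor on its way to the surface, had 1840, 1283 and 2591 counts, with log2 folds of -0.85 and 0.70 and remaining values of -0.22 and 0.51. The gamma-secretase subunit APH1A had 2264, 1853 and 3176 counts, with log2 folds of -0.62 and 0.70, while APH1B was at 0.87 with Rg3. Of the 9 genes, Rg3 had 2 called higher and 2 lower and TAM 3 higher and 2 lower, but with the trend removed 0 were called in either direction for either drug against control. Between TAM and Rg3, 2 were called higher with TAM once the trend was removed, FURIN (0.71, and 1.55 before) and ADAM17 (0.90, and -0.62 before).

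Of the 5 enzymes that put sugars on the receptor, Rg3 had 1 called higher and 2 lower and TAM 1 each way, and with the trend removed 0 were called with Rg3 and 1 was lower with TAM. The fringe gene LFNG had 440 counts in untreated cells, against 263 under Rg3 and 445 under TAM, a log2 fold of -1.07 with Rg3 that was -0.43 with the trend removed. POGLUT1 was at 0.78 with Rg3 and RFNG at 0.70 with TAM, and neither was past 1.5-fold with the trend removed. Among 4 other ligands compared for Rg3, 1 was called higher and 1 lower, with and without the trend. DLL3 had 2131 counts in untreated cells, 1858 under Rg3 and 1552 under TAM, with log2 folds of -0.52 and -0.25 that were 0.17 and -0.70 with the trend removed. DNER had 194, 125 and 167 counts and a log2 fold of -0.96 with Rg3, which was -0.86 with the trend removed.

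Of 10 ubiquitin ligases and sorting genes compared for TAM, 7 were called lower and 1 higher, with a median log2 fold of -0.83, where 23.5% and 17.4% of all genes were. MIB1, the ligase that lets ligands be taken up and so pull on the receptor, had 261 counts in untreated cells, against 535 under Rg3 and 74 under TAM, and its log2 fold of -1.61 with TAM (-2.01 to -1.24) was -0.71 with the trend removed. NEURL1B, of the other ligase family that acts on ligands, had 159, 113 and 60 counts, with a log2 fold of -1.20 with TAM and -1.13 with the trend removed. MIB2 had 162, 181 and 247 counts and was higher with TAM by both values (0.82 and 0.60). With the trend removed, MIB2 was also called higher with Rg3 (0.66, and -0.17 before). Its value between TAM and Rg3 was then -0.09. With the trend removed, 4 of the 10 genes were lower and 1 higher with TAM, where 16.0% and 13.2% of all genes were. With Rg3, DTX3 was lower by both values (-1.39 and -0.85), whereas ITCH and MIB1 were at 0.85 and 0.71 and at 0.11 and -0.09 with the trend removed, and NEURL1B was at -0.82 and -0.31.

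Of 14 corepressors that act with RBPJ, HES or HEY proteins, 2 were called higher and 5 lower with Rg3, and TAM had 1 higher and 3 lower, beside 25.0% and 19.3% of all genes for Rg3 and 17.4% and 23.5% for TAM. Rg3 had 0 higher and 1 lower with the trend removed, and TAM had 2 and 2. SPEN, which binds RBPJ, had 972 counts in untreated cells, against 1206 under Rg3 and 318 under TAM, a log2 fold of -1.41 with TAM (-1.59 to -1.22) and of -0.88 with the trend removed. NCOR1 had a log2 fold of -1.20 with TAM and of -0.45 with the trend removed. AES, a short Groucho-like protein, had 3476, 2643 and 5692 counts and was higher with TAM by both values (0.92 and 0.64). With Rg3, the Groucho gene TLE3 had 371 counts against 637 and was lower by both values (-1.11 and -0.74), while TLE2, CIR1 and HDAC2 were past 1.5-fold (-0.98, 0.73 and 0.73) only with the trend left in. With TAM, HDAC2 was called higher (0.61, and -0.295 before) and TLE2 lower (-0.73, and -0.33 before) only with the trend removed.

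**Figure D4:**
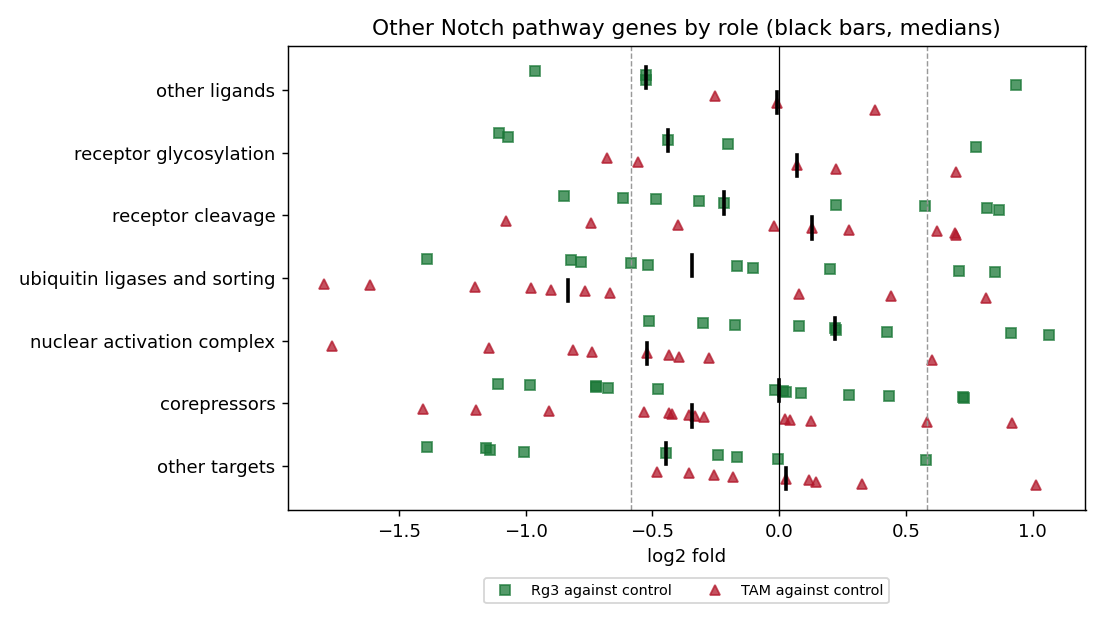
Log2 fold of the other Notch pathway genes compared, by role, in the Rg3 (squares) and TAM (triangles) library against the control library. Each point is 1 gene, black bars are medians of a role, and dashed lines mark 1.5-fold. With TAM the ubiquitin ligases and sorting genes have the lowest median, -0.83.

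The genes whose log2 folds with Rg3 and TAM lay nearest to those of the receptor, the ligand and the target with the most counts among the 9 members were sought among 8425 genes with at least 100 counts in each library, by Euclidean distance over these 2 values from 3 libraries. NOTCH2 was nearest to ADNP2 (distance 0.0182), TRIM6 (0.0221) and NUP160 (0.0431). JAG1 was nearest to TMEM63A (0.021), STAT6 (0.0224) and CLU (0.0426). HES1 was nearest to PARD6A (0.0245), STC2 (0.0736) and NAB2 (0.0846).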

How the data were processed

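Total RNA of PANC-1 cells was sequenced on an Ion Proton instrument, 1 library per condition, and the labels gave the treatment, dose and time of each. The authors checked reads with FAST-QC, aligned them with TopHat, and the deposited table holds raw counts of reads for each gene symbol. The submitters' notes name GRCh38, while the counting tool and the use of strand are not given in the sources used here. Library totals ran from 11300766 to 12861693 counts, which sets the counting intervals.

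TMM factors over all genes (edgeR 4.0.16, R 4.3.3) were 1.02 for control, 1.12 for Rg3 and 0.879 for TAM. Genes were compared where one library reached 10 counts, 3 was the lowest count used in a fold, and a gene was called past 1.5-fold in either direction (over 1.5 or under 0.67). Intervals are exact Clopper-Pearson intervals (95%) on the reads of a gene. The study's limma filter could not be fitted without replicates. GC content and length came from the longest GENCODE 29 transcript, available for 86.6% (Rg3) and 87.2% (TAM) of genes compared, and the loess trend (span 0.3) was fitted on genes with at least 50 counts. The trend was also applied to genes with fewer counts, such as DLL1, and NOTCH4 and HEY1 with Rg3. The steps were run on simulated counts with Poisson error only, a GC trend in the Rg3 library alone and no length trend. That simulation does not cover the trends seen with TAM or the spread between cultures. Alternatives were library totals, DESeq2 1.42.0 size factors, a filter of 1 or 50 counts, a floor of 1 count, a 2-fold limit, an exact read test with Benjamini-Hochberg adjustment over all genes compared, the exact test of edgeR at an assumed coefficient of variation between cultures (BCV), and removal of the trend.

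The members and lists were chosen with earlier results of these data known. Genes named beside the members were, per role and drug, at most 2 raised and 2 lowered among those called with at least 50 counts, plus the copy of NOTCH2 and the nearest patterns. GPSM3, DLL3, ADAM17, CCND1, SOX9, HES4, HES6 and HES7 were added after the values were seen. A gene that this rule names is not reported here.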

Additional observations from a re-analysis of the deposited data

How the results depend on the processing

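No paired analysis was possible because there was just 1 library for a condition, and for the same reason no library could be left out. The assumed spread between cultures moved the counts most. With an assumed BCV of 0.4 in edgeR's exact test, 0 members and 0 other pathway genes were called, higher or lower, in any of the 3 comparisons. The cause of these moves was not tested. With 0.2, members called with Rg3 came to 0 higher and 1 lower (1 and 4 without an assumed spread), with TAM to 0 higher and 0 lower (3 and 4), and between TAM and Rg3 to 4 higher and 1 lower (4 and 2). Other pathway genes came to 0 and 0 with Rg3, 0 higher and 3 lower with TAM, and 9 higher and 14 lower with TAM than with Rg3 (22 and 20). Removal of the GC and length trend left 2 members lower with Rg3 and 4 lower with TAM than with Rg3, and other pathway genes came to 4 higher and 5 lower for Rg3 (10 and 17), 4 higher for TAM (8), and 7 higher and 11 lower with TAM than with Rg3 (22 and 20). With a 2-fold limit, other pathway genes came to 1 higher and 8 lower for Rg3, the same numbers for TAM, and 12 higher with TAM than with Rg3. Library totals gave 3 higher and 26 lower with TAM, and 14 higher against 27 lower with TAM than with Rg3. A filter of 50 counts left out DLL1, NOTCH4 and HEY1 with Rg3. Of the 6 members still compared, 0 were higher and 3 lower. Between TAM and Rg3 it left out DLL1, so that 1 member was lower with TAM than with Rg3. No called member changed direction under any of the scaling, filter, floor or trend alternatives. Of 26 single log2 folds, 9 moved beyond their counting interval with library totals and 10 with the trend removed, and none with DESeq2's size factors. The few counts of DLL1, NOTCH4 and HEY1 limit what these libraries can show for them.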
